A study of Mus musculus with 6 samples.

Results

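Genes of the interferon response, 9 in all, were followed in cultured mouse pancreatic buds: the signalling factors Stat2, Irf9 and Irf7, the RNA sensor gene Ifih1, and the response genes Bst2, Isg15, Ifit1, Ifit3 and Oasl2. They were chosen by gene name, and all 9 were found among the 54532 genes of the RNA-seq table. Each of the 9 passed the filter on low counts, so each was among the 18226 genes tested. The buds were dissected at E12.5 (embryonic age in days) and kept as explants for 2 days in M199 medium with 10% fetal bovine serum. The 3 control libraries come from buds given the vehicle DMSO, and the 3 treated libraries from buds given 0.1 µM tetrabenazine (TBZ) throughout the culture. DMSO at 0.1% was in the culture medium of both groups. The protocol text is the same for all 6 libraries, and the treatment label separates the groups. TBZ blocks VMAT2, the transporter that loads monoamines into vesicles, and the study asked how that pathway acts on pancreas development. Strain, and whether buds were pooled, are not given in the sources used here. Nothing states that the replicates came from independent cultures, so the p-values cover the spread between these libraries only, and that spread may be technical.

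Interferons are secreted proteins that cells release when they sense viral or other misplaced nucleic acid. Type I interferons bind a receptor made of IFNAR1 and IFNAR2, whose kinases JAK1 and TYK2 phosphorylate STAT2. STAT2 and IRF9 are subunits of the complex ISGF3, which binds a DNA element called the ISRE (interferon-stimulated response element) and switches on response genes. Most tissues keep a low tonic level of such genes without infection, and macrophages are among the cells that contribute to it.

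The promoters show how the genes differ in the element that ISGF3 reads. RefSeq promoter windows (GRCm38.p6, the mm10 assembly), running from 250 bases before to 50 bases after each transcript start, matched all 9 genes. The core of the ISRE, GAAA followed by any 2 bases and GAAA, was searched on both strands. It was present in windows of 6 of the 9 genes, against 3.99% of the 27025 gene symbols in the table (3.44% of its 32851 windows, all of the same length). In the related lists the core was present for 22 of 47 other interferon response genes (46.8%), 10 of 21 class I and interferon gamma genes (47.6%), 11 of 20 interferon genes (55%) and 0 of 9 receptor, kinase and STAT genes. The stretches before the transcript start that hold the core are shown for 5 genes, 5′ to 3′ on the strand of the gene, with the matched letters in capitals; on Ifit1, Ifit3 and Stat2 the match is on the opposite strand and reads TTTC, 2 bases, TTTC.
Isg15: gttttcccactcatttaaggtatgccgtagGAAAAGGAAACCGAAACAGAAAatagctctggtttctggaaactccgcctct
Bst2: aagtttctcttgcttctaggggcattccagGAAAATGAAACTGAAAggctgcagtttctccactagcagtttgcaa
Ifit1: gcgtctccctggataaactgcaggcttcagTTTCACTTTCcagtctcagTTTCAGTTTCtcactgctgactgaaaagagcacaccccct
Ifit3: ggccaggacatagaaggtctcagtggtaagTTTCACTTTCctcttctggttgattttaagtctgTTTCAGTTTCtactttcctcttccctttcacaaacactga
Stat2: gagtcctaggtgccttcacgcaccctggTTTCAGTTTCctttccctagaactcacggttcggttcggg

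These stretches lie at chr4:156200845-156200926 (Isg15, minus strand), chr8:71537557-71537632 (Bst2, minus strand), chr19:34640755-34640843 (Ifit1, plus strand), chr19:34583343-34583446 (Ifit3, plus strand) and chr10:128270248-128270315 (Stat2, plus strand). No GENCODE M21 exon overlaps any of them. Isg15 held 3 overlapping matches, whose first bases lie 78, 72 and 66 bases before the start. Bst2 held 2 overlapping matches, at 130 and 124 bases. Ifit1 held 2 separate matches, at 104 and 85 bases, and Ifit3 held 2, at 156 and 122 bases, and in both genes the farther one reads TTTCACTTTC and the nearer one TTTCAGTTTC. Stat2 held 1, at 222 bases. The sixth gene, Ifih1, held 1 match that begins at base 33 of the transcript (GAAACAGAAA). The windows of Irf7, Irf9 and Oasl2 held none, which says only that these letters are not in those windows. The GAS core (TTC, any 3 bases, GAA; both strands), an element of interferon gamma target genes, matched 1 of the 9 genes (Bst2, TTCCAGGAA, overlapping the first of its ISRE matches by a few bases), against 9.55% of symbols. A match is a description of the sequence, not evidence of binding.

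**Figure D1:**
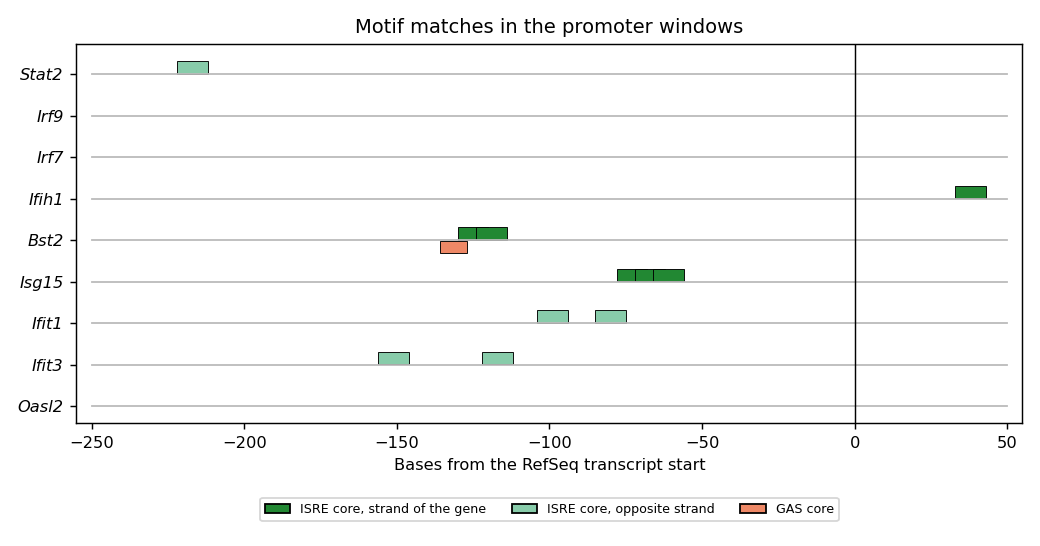
Each line is the promoter window of 1 gene, in bases from the RefSeq transcript start (0); boxes mark matches to the ISRE core (dark green on the strand of the gene, light green on the opposite strand) and the GAS core (orange). Matches of Isg15, Bst2, Ifit1, Ifit3 and Stat2 lie before the start, that of Ifih1 lies after it, and Irf7, Irf9 and Oasl2 have none.

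The libraries held 41005819 to 50620936 counted reads in the controls and 35825033 to 40973254 in TBZ, so each TBZ library was shallower than each control, and the biological coefficient of variation was 8.30%. All 11 pancreatic epithelium markers were detected, with a summed level of 1543 to 1758 CPM (counts scaled to library size, with TMM factors) in the controls and 2012 to 2350 CPM in TBZ. The enzyme gene Cpa1 weighed most in this sum, with 316993 reads over the 6 libraries beside 64477 to 94871 reads of all 11 markers per library. Of the 11 markers, 2 rose in TBZ with edgeR (adjusted p under 0.05) and 5 with DESeq2, which called 1.43% of the genes it gave an adjusted p. All 11 had a log2 fold change above 0. Every TBZ value was above every control value for 7 of them, as for 8.47% of all tested genes. Control replicate 3 had the highest sum of stomach and oesophagus markers, 258 CPM, beside 167 and 207 CPM in the other controls and 153 to 214 CPM in TBZ. Of the 13 tested, 4 were lower and 2 higher in TBZ at an edgeR unadjusted p under 0.05, which 9.61% of all tested genes reached. With adjustment 0 passed with edgeR and 2 with DESeq2, and the median log2 fold change was -0.29. Across all tested genes, 34 (0.187%) changed with edgeR's quasi-likelihood test at an adjusted p under 0.05.

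None of the 9 interferon response genes passed that test, against 0.187% of all tested genes (0.0329% lower and 0.154% higher in TBZ). The count was also 0 of 9 with DESeq2 (1.43% of the genes it gave an adjusted p) and with limma on FPKM. At an unadjusted p under 0.05 there was 1 of 9 with edgeR, Stat2, which was lower in TBZ, against 9.61% of all genes (4.54% lower). On the log2 scale TBZ lay below control for 5 genes and above it for 4, with a median fold change of -0.04 beside 0.00 over all genes tested, and edgeR adjusted p-values ran from 0.231 to 0.989. In 8 of 9 genes the values of the groups overlapped, and in 1 they did not, beside 15.5% of all tested genes without overlap. In 8 of 9 the 95% interval of the log2 fold change lay between -1 and 1, so a doubling or halving was outside it; for Ifit1 the interval reached lower. Because the libraries are bulk tissue, fewer cells of a type and less RNA per cell cannot be told apart in any of these values.

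Per length, the genes spanned a wide range, which FPKM (fragments scaled to gene length and library size, from the authors' table) allows to be compared. Bst2, which encodes tetherin, a membrane protein that holds budding virus particles at the cell surface, was the most abundant at 29.6 ± 1.85 FPKM (SD, n = 6 libraries), a level at or above that of 89.8% of tested genes. Stat2 followed at 4.42 ± 0.605 FPKM and Irf9 at 3.51 ± 0.128 FPKM, near the middle of the tested genes (percentiles 49.6 and 44.8). Isg15 stood at 1.77 ± 0.477 and Ifih1 at 1.06 ± 0.0528 FPKM. From Bst2 to Ifih1 the ranges of neighbours in this order did not overlap. The range of Ifih1 (1.00 to 1.15 FPKM) lay inside that of Ifit3 (0.479 to 1.19 FPKM). The ranges of further neighbours overlapped as well: Ifit3 (0.705 ± 0.276 FPKM), Oasl2 (0.551 ± 0.0612), Irf7 (0.527 ± 0.0832) and Ifit1 (0.358 ± 0.151). Within libraries, Ifit3 was above Oasl2 in 4 of 6, Oasl2 above Irf7 in 3 and Irf7 above Ifit1 in 5. Ifit3 was above Ifit1 in every library. The lowest of them, Ifit1, was at percentile 14.3.

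**Figure D2:**
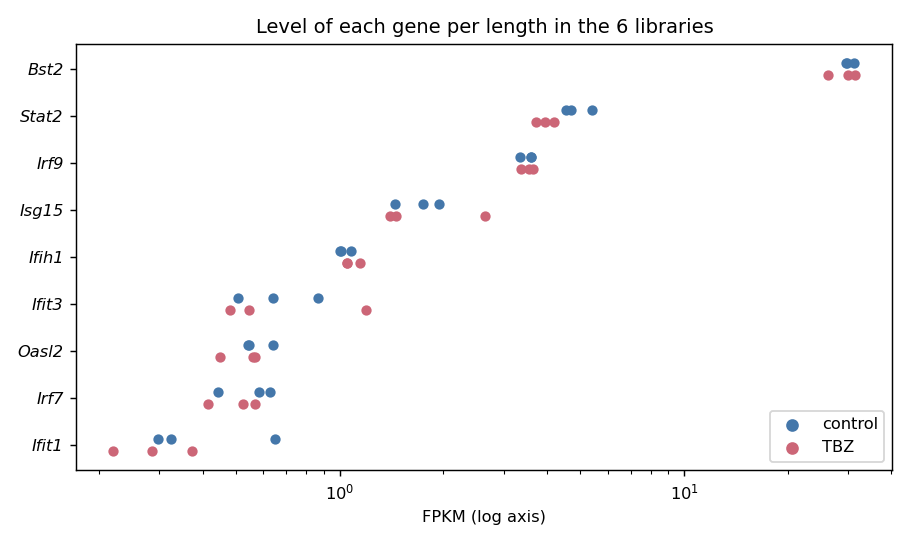
FPKM of each gene on a log axis, 1 point per library, controls in blue and TBZ in red. Bst2 lies apart at 26.2 to 31.4 FPKM, Stat2, Irf9 and Isg15 form separate steps, and from Ifih1 down the range of each gene overlaps that of the next.

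Among the transducers, Stat2 was the gene whose groups did not overlap. STAT2 is the subunit that gives ISGF3 its transactivation domain. Stat2 stood at 26.98, 28.004 and 32.05 CPM in the controls, in replicate order, and the TBZ libraries at 24.92, 22.04 and 23.46 CPM. Every TBZ value lay below every control value; such a separation in the lower direction occurred in 7.03% of all tested genes. Mean CPM was 29.0 ± 2.68 in the controls and 23.5 ± 1.44 in TBZ (SD, n = 3). The log2 difference of -0.30 ± 0.08 (SE; 95% interval -0.48 to -0.13) did not pass (edgeR adjusted p = 0.231). Its adjusted p was 0.0635 with DESeq2 and is 0.0634 in the authors' deposited table. With no filter on low counts edgeR put Stat2 past the threshold (adjusted p = 0.0205), and over all alternatives its adjusted p ran from 0.0205 to 0.594. Control replicate 3, the library with the highest stomach marker sum, had the highest Stat2 value; without it the log2 fold change was -0.23. Beside this, the pancreatic epithelium sum, in which Cpa1 weighed most, was higher in TBZ. The sum of 12 general epithelial markers overlapped, at 2109 to 2388 CPM in the controls and 2267 to 2514 CPM in TBZ. The part of tissue makeup in the Stat2 values was not tested.

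Irf9, which encodes the DNA-binding subunit of ISGF3, stood at 18.01, 19.46 and 19.36 CPM in the controls and at 19.67, 18.21 and 19.20 CPM in TBZ. The groups covered nearly the same range, and the log2 difference was 0.01 ± 0.07 (SE; 95% interval -0.15 to 0.16). Irf7, the factor that amplifies type I interferon production, stood at 2.37, 2.21 and 1.68 CPM in the controls and at 2.16, 1.57 and 1.99 CPM in TBZ, with control replicate 3 and TBZ replicate 2 low and the others close together. Its log2 fold change was -0.13 ± 0.20 (SE; edgeR adjusted p = 0.871). Both genes lie beside an overlapping neighbour on mm10: Irf9 (chromosome 14, 55603571 to 55610030) shares 2.28% of its exon bases with Rnf31 and Irf7 (chromosome 7, 141262706 to 141266481) 1.19% with Phrf1. Reads in those stretches are uncertain.

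Ifih1 encodes MDA5, a helicase that senses long double-stranded RNA. It stood at 8.22, 8.24 and 8.83 CPM in the controls and at 9.39, 8.62 and 8.63 CPM in TBZ. The lowest values were in control replicates 1 and 2 and the highest in TBZ replicate 1, and the groups overlapped through control replicate 3. The log2 fold change was 0.08 ± 0.09 (SE), with a 95% interval from -0.13 to 0.28.

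Of the effectors, Bst2 was nearly level across libraries, at 26.6, 28.1 and 26.9 CPM in the controls and 28.4, 23.7 and 27.1 CPM in TBZ. TBZ replicate 2 was the low library, and the log2 fold change was -0.04 ± 0.07 (SE; 95% interval -0.21 to 0.12). Oasl2, an oligoadenylate synthetase-like gene, stood at 4.10, 3.49 and 3.47 CPM in the controls and at 3.62, 3.58 and 2.89 CPM in TBZ. Here control replicate 1 was high and TBZ replicate 3 low, and the log2 fold change was -0.13 ± 0.15 (SE; edgeR adjusted p = 0.821).

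Isg15, Ifit1 and Ifit3 varied most, and between libraries of 1 group rather than between groups. ISG15 is a ubiquitin-like protein that is attached to other proteins during the response, and the IFIT proteins bind foreign RNA ends. Isg15 stood at 1.47, 1.32 and 1.10 CPM in the controls and at 2.01, 1.10 and 1.07 CPM in TBZ. TBZ replicate 1 was the high library, with 81 reads against 45 and 38 in the other TBZ libraries. Its 95% Poisson interval of 1.59 to 2.49 CPM lies above those of TBZ replicates 2 (0.806 to 1.48) and 3 (0.754 to 1.46). That interval also lies above the one of control replicate 3 (0.806 to 1.47) but overlaps those of control replicates 1 (1.15 to 1.86) and 2 (1.02 to 1.68). Ifit3 had the same high library, at 2.08 CPM (84 reads) beside 0.957 and 0.841 CPM in TBZ replicates 2 and 3 and 1.52, 1.12 and 0.886 CPM in the controls. Ifit1 differed from both in its highest library, control replicate 1, at 1.73 CPM (81 reads), with 0.789 and 0.862 CPM in the other controls and 0.991, 0.761 and 0.589 CPM in TBZ. In each of these genes, however, replicate 1 was the highest library of both groups. The Poisson intervals cover counting error only.

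The log2 fold changes of these 3 genes were therefore loosely bounded. They were 0.10 ± 0.28 (SE) for Isg15, with a 95% interval from -0.53 to 0.73, 0.14 ± 0.36 for Ifit3 (-0.67 to 0.96) and -0.52 ± 0.35 for Ifit1 (-1.32 to 0.28). The edgeR adjusted p-values were 0.936, 0.932 and 0.681. Without TBZ replicate 1 the direction turned for Isg15 (-0.26) and Ifit3 (-0.39), and without control replicate 1 the log2 fold change of Ifit1 was -0.08. Ifit1 and Ifit3 lie in a cluster of related genes on chromosome 19 (34640871 to 34650009 and 34583531 to 34588731). Of all stretches of 150 bases in the longest Ifit3 transcript, 18.5% also occur in Ifit3b, and 1.24% of those of Ifit1 occur in Ifit1bl2, so reads can be lost or moved between these copies. The other 7 genes shared no such stretch with another gene.

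**Figure D3:**
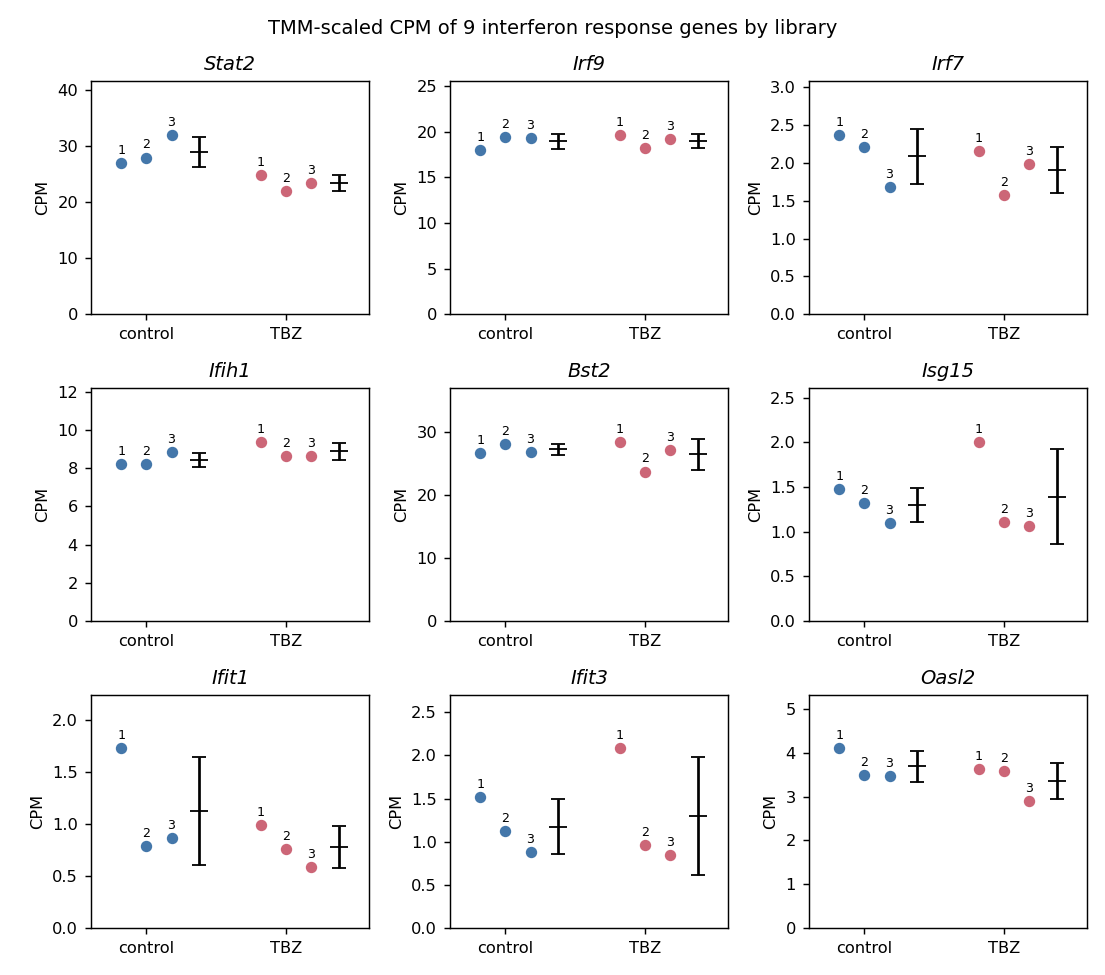
CPM of each gene, 1 point per library with its replicate number, and the mean with SD (n = 3) as a bar beside the points; each vertical axis starts at 0. The Stat2 groups are separate, the others overlap, and single high libraries are visible for Isg15 and Ifit3 (TBZ replicate 1) and for Ifit1 (control replicate 1).

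TBZ replicate 1 was the highest of the 6 libraries for 5 of the 9 genes (Irf9, Bst2, Isg15, Ifit3 and Ifih1). Among 60 other tested interferon response genes it was the highest for 20 (33.3%), beside 16.3% of all tested genes and 18.5% of the 628 tested genes with a mean CPM in the range of Isg15, Ifit1 and Ifit3. The other pathway lists fell on both sides of the share of all tested genes. TBZ replicate 1 was the highest for 4 of 27 class I and interferon gamma genes (14.8%, beside 40.7% in control replicate 3) and 2 of 17 sensing genes (11.8%). It was the highest for 3 of 11 receptor, kinase and STAT genes (27.3%) and 1 of 6 other IRF genes (16.7%). Of the 8 genes of ISG15 conjugation and negative regulation it was the highest for 2 (25%). These shares were looked at after the values were seen and carry no test. Macrophage markers were also high in that library: their sum was 756 CPM in TBZ replicate 1, 631 and 587 CPM in the other TBZ libraries, and 641, 762 and 611 CPM in the controls. Control replicate 2, with the highest macrophage sum, was the highest library for 0 of the 9 genes. None of the 16 macrophage markers passed the edgeR test (0 at an unadjusted p under 0.05, 0 with DESeq2), their median log2 fold change was -0.01, and none was at 0 reads in all 6 libraries. Endothelial markers were highest in TBZ replicate 1 for 7 of 10 genes, with sums of 483 to 488 CPM in the controls and 529, 502 and 491 CPM in TBZ. Sums of mesenchyme markers (7409, 8529 and 7593 CPM in the controls, 8614, 7668 and 7554 CPM in TBZ) and of pancreatic epithelium markers were also highest there. Those of general epithelial, stomach and oesophagus, neutrophil, and plasmacytoid and lymphoid markers were not. The part of any cell type in the values of this library was not tested.

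**Figure D4:**
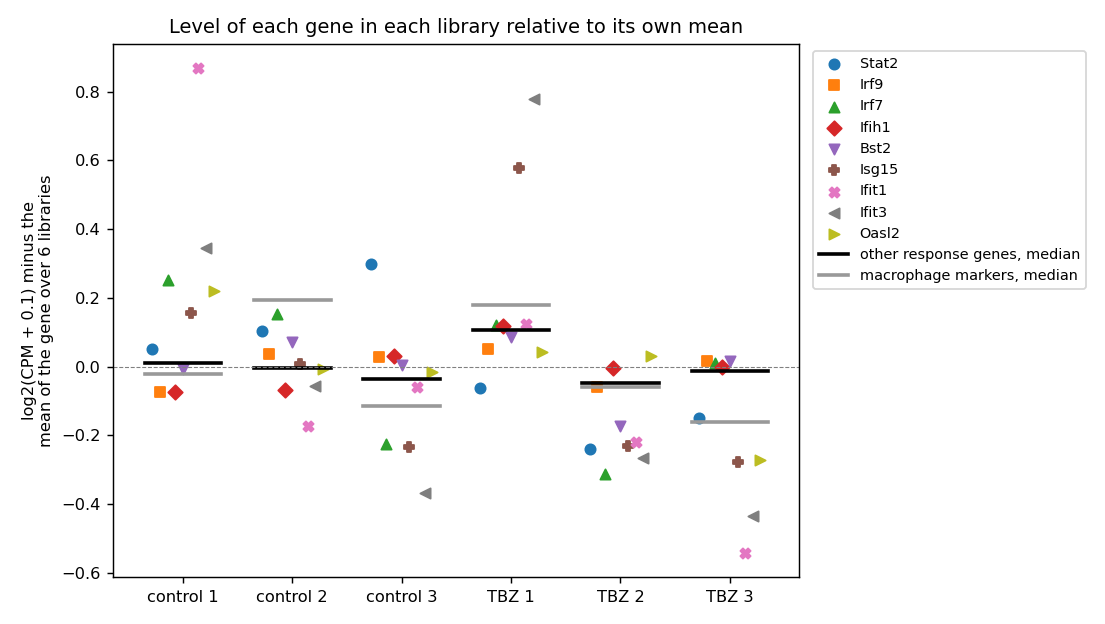
The vertical axis is log2(CPM + 0.1) minus the mean of the gene over the 6 libraries; symbols are the 9 genes, black bars the median of 60 other interferon response genes and grey bars the median of 16 macrophage markers. TBZ replicate 1 has the highest black bar (0.11), and Isg15 (0.58) and Ifit3 (0.78) lie far above it there, while Ifit1 is high in control replicate 1 (0.87).

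Upstream of these genes, transcripts of the interferons themselves were near or below detection. Of 21 interferon genes looked up, 18 had no read in any library, among them the 14 Ifna and Ifnab genes, Ifng, Ifne and the interferon lambda genes Ifnl2 and Ifnl3. Ifnb1 had 1 read, in control replicate 3, and Ifnz 1 read, in TBZ replicate 2. Ifnk, the keratinocyte interferon, had 17 reads over the 6 libraries, 7 of them in TBZ replicate 2. A count of 0 allows up to 3 reads, which is 0.0592 to 0.0841 CPM depending on the library. The Ifna genes are near-identical copies, and reads that fit several of them may not have been counted.

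Genes of the receptors, kinases and STATs were detected in both groups, Ifnar1 at 22.98 FPKM (percentile 86.1 of tested genes) and Jak1 at 37.5 FPKM (percentile 92.3). The receptor subunit gene Ifnar1 stood at 139, 140 and 132 CPM in the controls and at 138, 136 and 136 CPM in TBZ, a log2 fold change of 0.00 ± 0.04 (SE). The kinase gene Jak1 ranged from 263 to 282 CPM, with a log2 fold change of 0.03 ± 0.04 (SE), and Stat3 and Il10rb, the genes of the list with high expression or a small p that the naming rule also took, had log2 fold changes of 0.08 and 0.05. Over the 11 genes of receptors, kinases and STATs the log2 fold changes lay between -0.05 and 0.08, with 7 above and 4 below 0.

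Among 6 tested IRF genes outside the 9, Irf1, a factor of the interferon gamma response, stood at 21.02, 22.58 and 25.44 CPM in the controls and at 19.89, 19.88 and 16.85 CPM in TBZ. Its groups did not overlap, in the lower direction, as for 7.03% of all tested genes. Its log2 fold change of -0.28 ± 0.09 (SE) did not pass (edgeR adjusted p = 0.365). Irf2 (0.11) and Irf3 (-0.03) had overlapping groups. Of 17 sensing genes 8 were above and 9 below 0, within -0.19 and 0.12, with Trim25 (0.10), a ligase that activates RIG-I, Ticam1 (0.10), a Toll-like receptor adaptor, and the kinase gene Tbk1 (-0.01) among them. The groups were separate for 2 of the 17 in the lower direction and for 1, Trim25, in the higher (7.03% and 8.47% of all tested genes).

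The 60 other response genes were split, 35 above and 25 below 0, with a median of 0.02. The abundant membrane proteins Ifitm2 (130 FPKM) and Ifitm3 (109 FPKM), which restrict virus entry, had log2 fold changes of -0.01 and 0.03. The smallest p-values belonged to Isg20, an exonuclease gene (log2 fold change 0.42 ± 0.13 SE, edgeR adjusted p = 0.327), and Apobec3, a cytidine deaminase gene (0.29 ± 0.09 SE, edgeR adjusted p = 0.335). Both had every TBZ value above every control value, which 8.47% of all tested genes did, and neither passed. In this list the groups were separate for 6 genes in the higher direction and for 1 in the lower (7.03% of all tested genes). Of 8 tested genes of ISG15 conjugation and negative regulation 4 were above and 4 below 0, with Samhd1 at 0.03, the RNA editor gene Adar at -0.15 and the inhibitor gene Socs3 at -0.19 ± 0.07 (SE; edgeR adjusted p = 0.403). Socs3 was the 1 gene of the 8 with separate groups, in the lower direction.

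Class I antigen presentation and interferon gamma response genes had 9 of 27 above and 18 below 0, with a median of -0.05. Cxcl10, a chemokine gene induced by interferons, stood at 5.27, 3.96 and 5.74 CPM in the controls and at 3.32, 3.31 and 2.91 CPM in TBZ. Its groups were separate in the lower direction, as for 7.03% of all tested genes, and the log2 difference was -0.65 ± 0.16 (SE). Its edgeR adjusted p, 0.212, was the smallest of the 129 pathway genes tested, and its adjusted p with DESeq2 was 0.0529. H2-T23, a non-classical class I gene, was at 6.64, 7.34 and 7.80 CPM in the controls and at 9.02, 9.60 and 9.45 CPM in TBZ, a log2 fold change of 0.37 ± 0.10 (SE; edgeR adjusted p = 0.237). Its groups were separate in the higher direction, as for 8.47% of all tested genes. B2m and Psme1, abundant genes of the same list, had log2 fold changes of -0.09 and 0.04.

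In all, 0 of 129 tested pathway genes outside the 9 passed with edgeR, 0 with DESeq2 and 0 with limma on FPKM, beside 0.187% of all genes with edgeR. At an unadjusted p under 0.05 there were 11 (6 higher and 5 lower in TBZ), or 8.53%, beside 9.61% of all tested genes. The log2 fold changes were positive for 65 and negative for 64, with a median of 0.00.

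**Figure D5:**
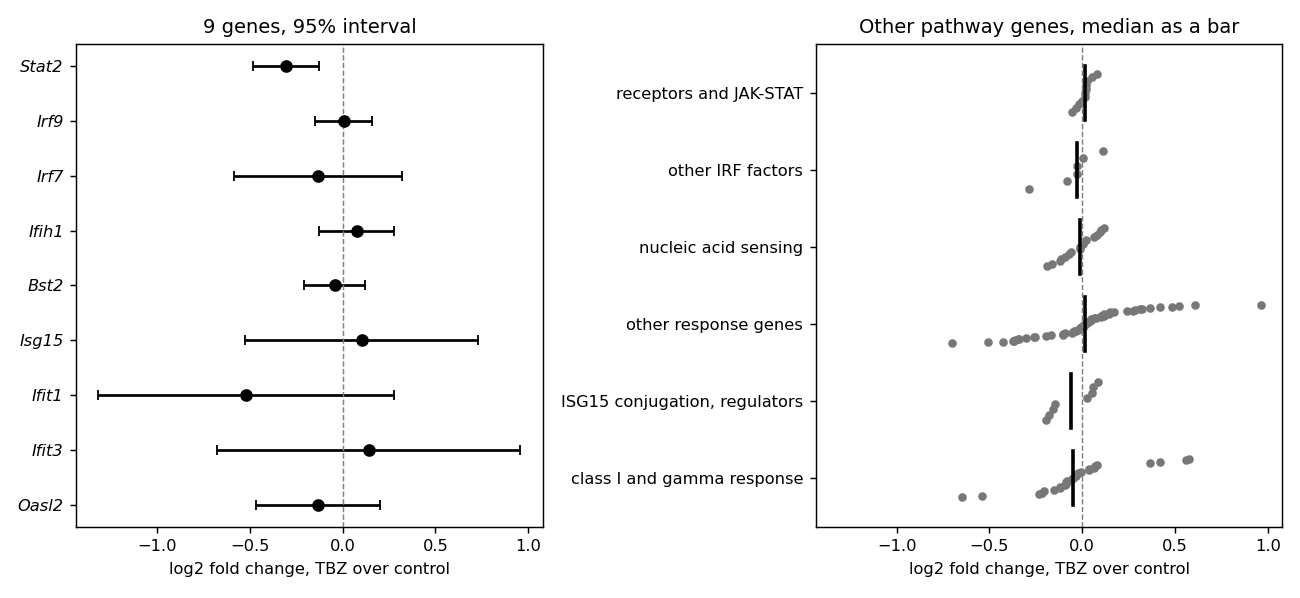
Left, log2 fold change of TBZ over control of the 9 genes with 95% intervals from edgeR; right, the same value for each tested gene of 6 pathway lists, with the median of each list as a bar. The interval of Stat2 alone excludes 0 before adjustment, those of Ifit1, Ifit3 and Isg15 are wide, and the list medians lie between -0.06 and 0.02.

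The profile of the 9 genes over the 6 libraries was also set against all others. The median of the genes, each centred on its own mean on the log2 scale, was 0.15, 0.01 and -0.01 in the controls, by replicate number, and 0.12, -0.22 and -0.15 in TBZ. Of 12105 other protein-coding genes with a mean of at least 1 FPKM, the closest were Fbxo48, Pcdhb20, Tnni1, Fer1l5 and Lin52, with mean absolute differences of 0.02 to 0.04 per library beside a median of 0.13 over the candidates. No gene of the interferon lists was among these 5.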

How the data were processed

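RNA was poly-A selected and sequenced in read pairs, per the labels' protocols. The tools STAR and HTSeq and the build mm10 are named in the submitters' processing notes, without versions. Per the file headers, the deposited table holds read counts without normalization and FPKM values made by the authors. It also holds the authors' group mean signal, log2 fold changes and p-values with adjusted p-values, with no tool named; of these the log2 and p-value columns are quoted only where named, and the signal was not used. The library kit does not mark strand, so reads of antisense neighbours cannot be told apart.

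Counts of all genes were tested with edgeR's quasi-likelihood test (edgeR 4.0.16, R 4.3.3) after TMM scaling and filterByExpr, with Benjamini-Hochberg adjustment over 18226 genes. Each SE is the size of the log2 change divided by the root of its F statistic. The alternatives were DESeq2 1.42.0, limma 3.58.1 on log2(FPKM + 0.5), other scalings, pseudocounts and filters, a replicate block and leaving out each library. The code was tested on simulated data. Positions of all 9 genes were the same in GENCODE M21. Sequences are from RefSeq.

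The 9 genes and the 7 pathway and 8 marker lists were chosen with earlier results of these data known. The genes named are the 9, from each pathway list the 2 with the smallest p and the 2 with the highest FPKM, and the 5 of closest profile. A gene that this rule names is not reported here. Marker genes, genes of single reads or named for a call in an alternative or with the ISRE core, and interferons at 0 were named outside the rule, after their values were seen. Of the listed symbols 2 are alternative names not in the table.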

Additional observations from a re-analysis of the deposited data

How the results depend on the processing

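The count of interferon response genes that passed was 0 of 9 in each alternative run except edgeR with no filter on low counts, where it was 1 (Stat2). For the 129 pathway genes it was 0 in each alternative run except that same one, where it was 2 (Cxcl10 and Ifitm1). Over all genes the count of 34 became 222 with DESeq2, 445 with no filter in edgeR, 13 with limma on log2(FPKM + 0.5), 14 with a pseudocount of 0.1, 4 with a pseudocount of 1, 0 with limma and no filter, and 5 to 36 when 1 library was left out (13 when it was control replicate 2, 11 for TBZ replicate 1 and 5 for TBZ replicate 3); the cause was not tested. At an unadjusted p under 0.05, limma with no filter had 2135 genes.

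Over all tested genes the replicate number did not pair the libraries. Deviations from the group means correlated at 0.00, -0.15 and -0.08 for numbers 1 to 3, and no library correlated best with its own number. Within the 9 genes, replicate 1 was the highest library of both groups for Irf7, Isg15, Ifit1, Ifit3 and Oasl2. That was not so for Stat2, Irf9, Bst2 and Ifih1. With the replicate block 0 of 9 interferon response genes, 0 pathway genes and 5 of all genes passed. The block lowered the SE of Isg15 (0.28 to 0.23), Ifit1 (0.35 to 0.26) and Ifit3 (0.36 to 0.24). It raised that of Irf7, Irf9, Bst2 and Ifih1.

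Leaving out 1 library turned the sign of Irf9 (-0.032 to 0.038), Bst2 (-0.10 to 0.031), Isg15 (-0.26 to 0.26) and Ifit3 (-0.39 to 0.36), none of which passed in any fit. Ifit1 ranged from -0.73 to -0.08 and Stat2 from -0.36 to -0.23. Isg15, Ifit1 and Ifit3 had 21 to 84 reads per library, a counting error of 10.9% to 21.8% of each value.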

Other observations

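The ISRE core was also looked up over all tested genes, after the promoters of the 9 genes were seen. Of 457 tested genes with the core in a promoter window, 227 (49.7%) were higher in TBZ on the log2 scale, and their median was 0.00, beside 51.4% and 0.00 for 12128 tested genes without it. Those past the edgeR threshold were 2 (0.438%), the trypsinogen gene Prss2 and Ttyh1, beside 22 (0.181%) of the genes without it. Among the other interferon response genes, 16 of 22 with the core and 12 of 24 without it were above 0, with medians of 0.06 and 0.00. TBZ replicate 1 was the highest library for 6 of the 22 and 8 of the 24. These are descriptions with no test, and the 9 genes are within the first set where their window holds the core.

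Neutrophil markers, another class of cells that respond to interferon, had a summed level of 11.9 to 17.7 CPM in the controls and of 17.4, 26.2 and 27.4 CPM in TBZ, by replicate number. The granule gene Mpo stood at 1.43, 2.23 and 1.29 CPM in the controls and at 1.41, 6.26 and 6.67 CPM in TBZ, a log2 fold change of 1.52 that did not pass (edgeR adjusted p = 0.346). S100a8 (0.64) and S100a9 (0.62), which encode the calprotectin subunits, had every TBZ value above every control value, as 8.47% of all tested genes did, and did not pass (edgeR adjusted p = 0.265 and 0.317). Csf3r, the receptor gene for granulocyte colony-stimulating factor, had a log2 fold change of -0.03. These are the 4 of 7 markers that were tested, and none of the 7 was at 0 reads in all 6 libraries. Of the 4, 3 were higher in TBZ at an edgeR unadjusted p under 0.05, which 9.61% of all tested genes reached in either direction. With DESeq2 0 passed. The part of these cells in the values of the interferon response genes was not tested. Markers of plasmacytoid and lymphoid cells summed to 2.39 to 2.94 CPM in the controls and 2.97 to 3.22 CPM in TBZ over 10 genes, of which 4 were tested and none passed with edgeR (0 at an unadjusted p under 0.05, 0 with DESeq2).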
